A study of Homo sapiens with 12 samples.

Results

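The 9 genes described here, across 4 groups of libraries, encode proteins that write, copy, erase or read cytosine methylation. They are the methyltransferases DNMT1, DNMT3A and DNMT3B, the maintenance factor UHRF1, the dioxygenases TET1, TET2 and TET3, and the methyl-CpG binding domain proteins MBD2 and MBD3. They were chosen by name, as the rows with these symbols, and all 9 were found among the 25146 genes of the deposited table, which lists genes by symbol only. The study treated 2 human cell lines of T-cell acute lymphoblastic leukaemia with chidamide (tucidinostat), a benzamide inhibitor of histone deacetylases (HDAC1, HDAC2, HDAC3, and also HDAC10), and sequenced total RNA. The groups were untreated Jurkat, Jurkat with chidamide, untreated Molt-4 and Molt-4 with chidamide, with 3 libraries each. The dose was 2 µM, and the protocol gives 48 h. On the labels of treated libraries the hours run 48, 49 and 50 for replicates 1 to 3, so time and replicate cannot be told apart. Both are established lines grown under the same conditions, and each library is identified by a letter alone, J taken here for Jurkat and M for Molt-4. Nothing in the labels says that a group's libraries are separate cultures. The p-values therefore set differences only against the spread among these libraries, which may be technical.

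Methylation of CpG sites is copied at each round of DNA replication. UHRF1 recognises the hemimethylated site behind the fork and brings in DNMT1, while DNMT3A and DNMT3B set methylation at sites that lacked it. TET enzymes oxidise methylcytosine, which starts its removal, and MBD2 and MBD3 are alternative subunits of the nucleosome remodelling and deacetylase complex NuRD, which also holds HDAC1 and HDAC2. DNMT3A and TET2 are known as recurrently mutated genes in blood cancers. DNA methylation and protein were not analysed here.

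The unit of the table is FPKM, fragments scaled to transcript length and library size, which allows levels of different genes to be compared. Differences were tested with limma on log2(FPKM + 1) over the 13840 genes that reached an FPKM of 1 in 3 libraries, and a gene was called where its p-value, adjusted by the Benjamini-Hochberg method over all of these genes, was under 0.05. All 9 genes were tested. Sequencing depth is unknown. The summed FPKM of a library ranged from 698435 to 869059. Replicate 3 of untreated Jurkat was less like its group than any other library: its log2 ratios to replicates 1 and 2 had SDs of 0.332 and 0.337 over genes, against 0.233 to 0.269 for the remaining pairs within groups. In untreated Molt-4 replicate 3 the 7SL RNA genes took 10.1% of total FPKM, against 2.25% to 5.35% elsewhere. Of 10 T-cell lineage markers, 10 had a mean FPKM of at least 1 in every group except untreated Molt-4, where CD28 lay below. Their summed FPKM was 2294 to 2344 in untreated Jurkat, 1387 to 1442 in treated Jurkat, 980 to 1054 in untreated Molt-4 and 766 to 792 in treated Molt-4. The markers did not all move one way: 2 rose (CD28, CD2) and 7 fell in Jurkat, and 4 rose (CD28, CD247, CD7, CD2) and 5 fell in Molt-4, with median log2 changes of -0.78 and -0.031. Of all genes tested, 30.9% were called higher and 25.4% lower in Jurkat, and 35.4% and 24.6% in Molt-4, so the share that rose in Molt-4 was near that of all genes.

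Some markers of other cell types moved with treatment in Molt-4, and fewer did in Jurkat. The summed FPKM of 6 myeloid markers went from a range of 11.3 to 11.99 in untreated Molt-4 to 89.0 to 89.9 in treated Molt-4, with LYZ, ITGAM and CD33 at a mean of 1 or more and MPO at 0 before treatment. Most of this rise came from LYZ (mean 0.677 to 62.9 FPKM) and CD33 (10.3 to 20.9 FPKM). CD14 went from 0.433 to 0.287 FPKM, and MPO (0.133) and CSF1R (0.423) stayed below 1 in treated Molt-4. In Jurkat the sum of the 6 myeloid markers was 0.21 to 1.12 untreated and 1.51 to 4.66 treated. Epithelial markers (EPCAM, CDH1, KRT18, KRT19) were 4 of the 8 non-blood markers at a mean of 1 or more in Molt-4, and the sum of the 8 was 80.8 to 84.3 untreated and 173.5 to 177.7 treated. EPCAM was at a mean of 13.4 FPKM untreated and 14.9 FPKM treated in Molt-4 and was not called. In Jurkat none of the 8 reached a mean of 1, though KRT18 was called higher (0.127 ± 0.0551 to 0.453 ± 0.240 FPKM). Of 4 B-cell markers, 2 reached a mean of 1 in treated Molt-4 and none in the other groups. MS4A1 was at 0 in treated Molt-4, and the summed FPKM of the 4 was 6.53 to 8.70 there and at most 2.70 elsewhere. The part of these markers in the results was not tested. In bulk RNA, fewer cells of a kind and less RNA per cell cannot be told apart.

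Promoter sequence from RefSeq was matched for 9 of 9 genes, as windows of 300 bases (250 before and 50 after a transcript start) in the build GRCh38.p14. Shown are the bases from 150 before to 10 after the most upstream listed start for the 4 genes that carry most of the results. These are UHRF1 and DNMT1 as the maintenance pair and MBD3 and DNMT3B as the other genes called in both lines. Capitals mark a match to an E2F word. E2F factors drive genes of DNA replication, and the words searched on both strands were TTTCCCGC, TTTCGCGC, TTTGGCGC and TTTGCCGC. The stretches are UHRF1 at chr19:4909351-4909510 on the plus strand, DNMT1 at chr19:10194944-10195103 on the minus strand, MBD3 at chr19:1592856-1593015 on the minus strand and DNMT3B at chr20:32779702-32779861 on the plus strand.
UHRF1: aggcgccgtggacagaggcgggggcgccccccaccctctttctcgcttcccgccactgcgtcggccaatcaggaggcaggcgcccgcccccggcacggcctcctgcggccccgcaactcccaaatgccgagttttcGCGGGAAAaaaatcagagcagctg
DNMT1: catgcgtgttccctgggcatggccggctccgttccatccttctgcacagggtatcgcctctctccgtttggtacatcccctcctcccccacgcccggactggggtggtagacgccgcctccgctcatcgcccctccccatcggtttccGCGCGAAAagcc
MBD3: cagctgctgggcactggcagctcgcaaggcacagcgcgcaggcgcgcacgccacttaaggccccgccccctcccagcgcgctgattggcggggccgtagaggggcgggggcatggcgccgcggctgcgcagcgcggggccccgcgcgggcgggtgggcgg
DNMT3B: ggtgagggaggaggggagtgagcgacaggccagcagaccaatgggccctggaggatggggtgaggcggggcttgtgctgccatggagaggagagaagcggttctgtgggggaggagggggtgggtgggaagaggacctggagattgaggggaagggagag
Among the most upstream windows of 27326 genes, 911 (3.33%) held one of the 4 words. UHRF1 and DNMT1 each held 1 match, both overlapping or close to the start. A further match lay in the window of a second UHRF1 start, and none of the words was in any listed RefSeq window of the other 7 genes. The CpG counts of the 4 windows of 300 bases were 36 for UHRF1, 30 for DNMT1, 40 for MBD3 and 3 for DNMT3B, against a median of 14 over all windows, with quartiles of 3 and 28. The 1 listed DNMT3B window thus lay at the lower quartile and the other 3 windows above the upper one. Any start of DNMT3B beyond the 1 listed was not examined, so the gene is not called poor in CpG here. A match is a description of these letters and not a binding site, and binding was not analysed here.

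The levels of the 9 genes spanned about the same range in every group, from DNMT1 and UHRF1 at the top to TET1 and TET2 at the bottom, as the plot of FPKM by library shows. In untreated Jurkat the means in FPKM were 230.1 for DNMT1, 143 for UHRF1, 113 for MBD3, 55.0 for DNMT3A, 20.7 for MBD2, 15.03 for TET3, 12.9 for DNMT3B, 2.87 for TET2 and 2.58 for TET1. Neighbours in this order did not overlap except TET3 with DNMT3B and TET2 with TET1. In untreated Molt-4 the means were 249.7 for UHRF1, 229.6 for DNMT1, 107 for MBD3, 33.98 for DNMT3A, 17.9 for DNMT3B, 15.02 for MBD2, 9.82 for TET3, 3.24 for TET1 and 1.77 for TET2. There the libraries of UHRF1 and DNMT1 overlapped, and no other neighbours did. With treatment UHRF1 stood below DNMT1 in Molt-4 (134 against 207 FPKM), and in Jurkat DNMT3B (17.8 FPKM) stood above TET3 (16.3 FPKM), both without overlap. In treated Jurkat MBD2 and DNMT3B were the neighbours that overlapped, and in treated Molt-4 none did.

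**Figure D1:**
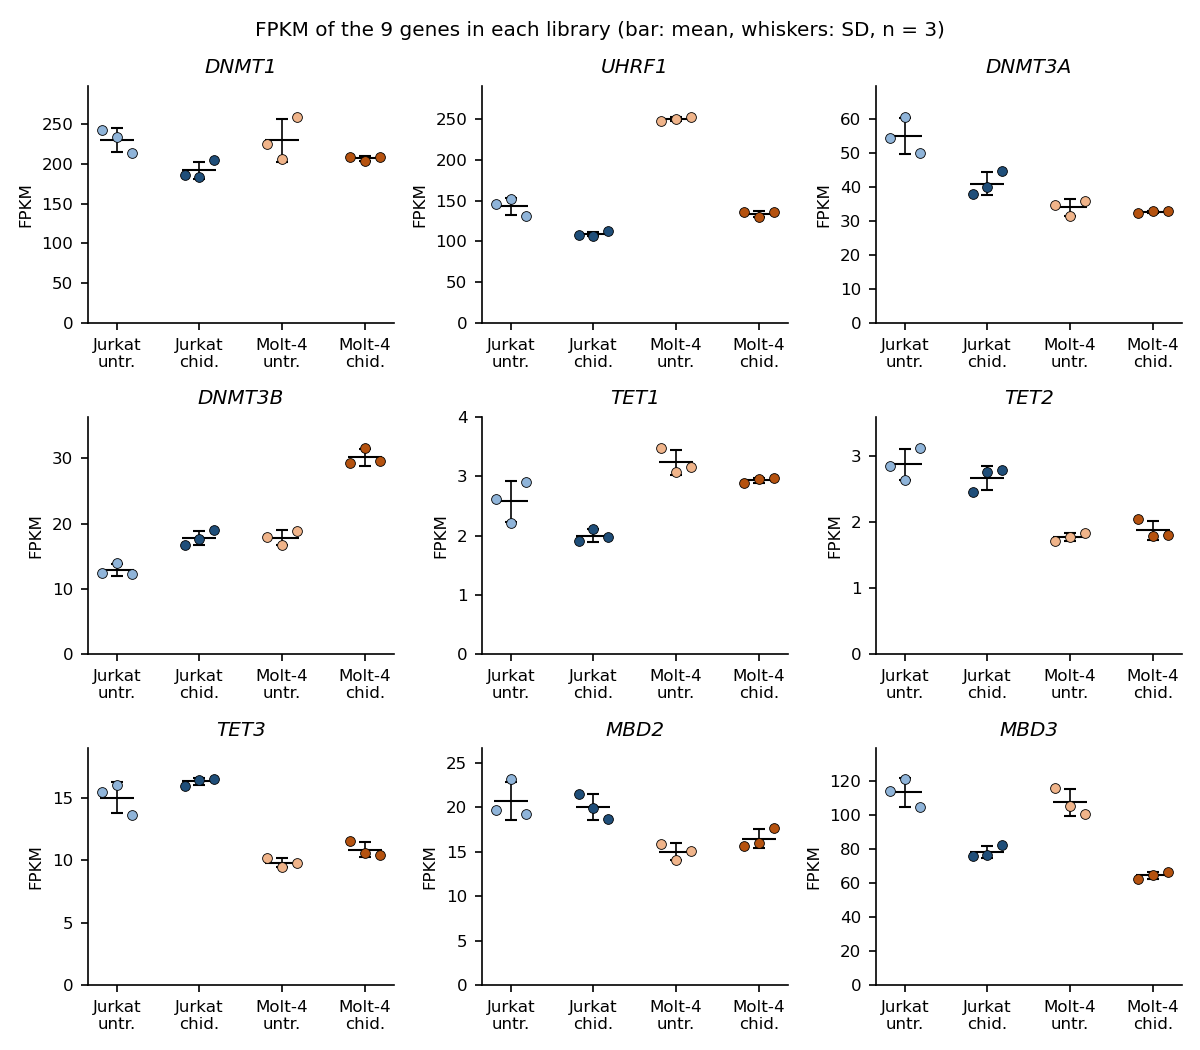
FPKM (linear axis from 0) of each of the 9 genes in the 12 libraries, by group (untr., untreated; chid., chidamide). Points are libraries in the order of their replicate numbers, the bar is the mean and the whiskers are 1 SD (n = 3). UHRF1 in untreated Molt-4 (247 to 252) and DNMT3B in treated Molt-4 (29.3 to 31.6) lie above every other group.

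With chidamide, UHRF1 and MBD3 fell and DNMT3B rose in both lines, while DNMT1, DNMT3A and TET1 fell in Jurkat. In Jurkat 5 of the 9 genes were called lower and 1 higher, where 25.4% and 30.9% of all genes tested were called in these directions. In Molt-4 2 of the 9 were called lower and 1 higher, where 24.6% and 35.4% of all genes were, so the share of the 9 called lower was near that of all genes. The median log2 change of the 9 was -0.25 in Jurkat and -0.053 in Molt-4, beside 0.037 and 0.076 over all genes tested. Of all calls in Molt-4, 59.0% were higher, and 41.3% were higher after quantile normalization, which moved the median of all genes from 0.076 to -0.097. The changes are shown with their 95% intervals in the plot of responses.

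**Figure D2:**
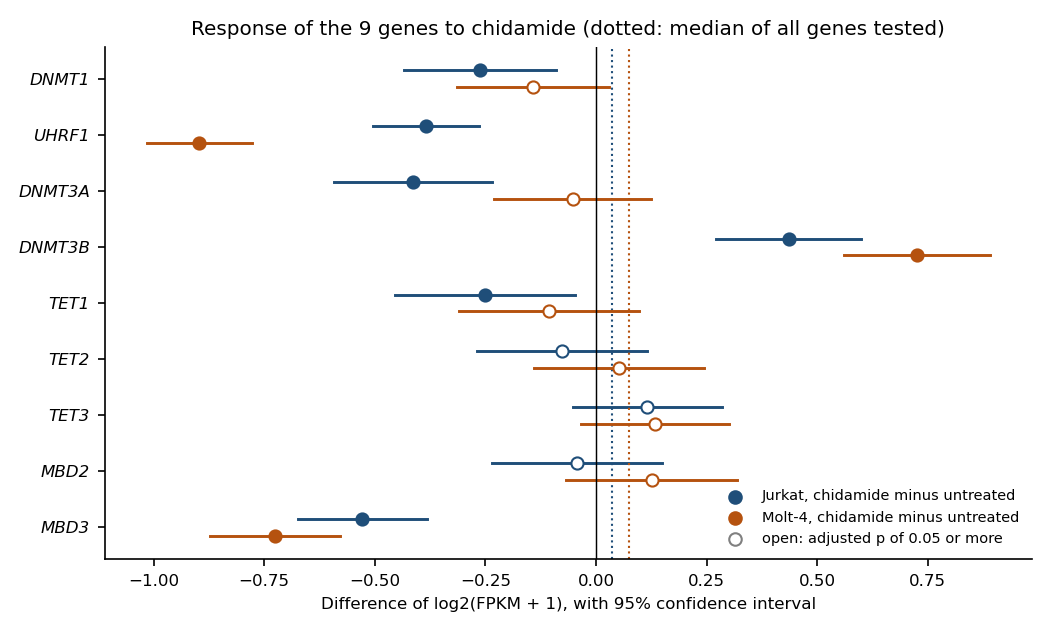
Difference of log2(FPKM + 1), chidamide minus untreated, for the 9 genes in Jurkat (blue) and Molt-4 (orange), with 95% confidence intervals from limma; filled points have an adjusted p under 0.05 and dotted lines are the medians of all genes tested (0.037 and 0.076). UHRF1 and MBD3 lie to the left and DNMT3B to the right in both lines.

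Of the maintenance pair, UHRF1 fell in both lines and more in Molt-4. Its FPKM was 145, 152 and 131 in the 3 untreated Jurkat libraries and 107, 107 and 112 in the treated ones. The Molt-4 values were 247, 249 and 252 FPKM untreated and 136, 129 and 136 treated. The treated libraries were below the untreated ones in each line without overlap, and treated Molt-4 reached about the level of the lowest untreated Jurkat library. On the log2 scale UHRF1 fell by 0.38 ± 0.055 (SE, adjusted p = 7.88e-05, limma) in Jurkat and by 0.90 ± 0.055 (adjusted p = 4.77e-08) in Molt-4. The difference of the responses was -0.51 ± 0.077 (adjusted p = 0.000352), in a comparison where 12.1% of all genes were called lower. Of all genes tested, 1.97% had a lower change than UHRF1 in Molt-4 and 17.9% had one in Jurkat. Without untreated Jurkat replicate 3 the Jurkat change was -0.44 (adjusted p = 3.71e-06), and without untreated Molt-4 replicate 3 the Molt-4 change was -0.89 (adjusted p = 6.61e-07).

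DNMT1, the enzyme that UHRF1 recruits, fell in Jurkat, and its change in Molt-4 did not pass the test. Its FPKM in Jurkat was 243, 234 and 214 untreated and 187, 184 and 204 treated. In Molt-4 the levels were 224, 205 and 259 FPKM untreated and 209, 203 and 209 treated. The Jurkat groups did not overlap, and the Molt-4 groups did, with the untreated libraries more widely spread. DNMT1 fell by 0.26 ± 0.078 on the log2 scale in Jurkat (adjusted p = 0.0128). This call was lost after quantile normalization (-0.13, adjusted p = 0.1002), without untreated Jurkat replicate 1 (adjusted p = 0.0525) and without treated Jurkat replicate 2 (adjusted p = 0.0501), and it was kept without untreated Jurkat replicate 3 (-0.31, adjusted p = 0.00602). In Molt-4 the change was -0.14 ± 0.078 (adjusted p = 0.137), with a 95% interval from -0.31 to 0.029. It was called without untreated Molt-4 replicate 2 (-0.22, adjusted p = 0.0300) and with median-of-ratios scaling (-0.19, adjusted p = 0.0497), and without untreated Molt-4 replicate 3 it was -0.053 (adjusted p = 0.531). The difference between the lines was 0.12 (95% interval -0.12 to 0.36, adjusted p = 0.451).

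Within a library the ratio of UHRF1 to DNMT1 FPKM is free of any scaling of the whole library. It was 0.621 ± 0.0270 (SD, n = 3) in untreated Jurkat, 0.570 ± 0.0175 in treated Jurkat, 1.10 ± 0.120 in untreated Molt-4 and 0.646 ± 0.00868 in treated Molt-4. The untreated Molt-4 libraries (0.975 to 1.21) stood above all others, and the remaining groups lay between 0.550 and 0.652. A ratio shows that the genes changed unequally, not which of them did not change.

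**Figure D3:**
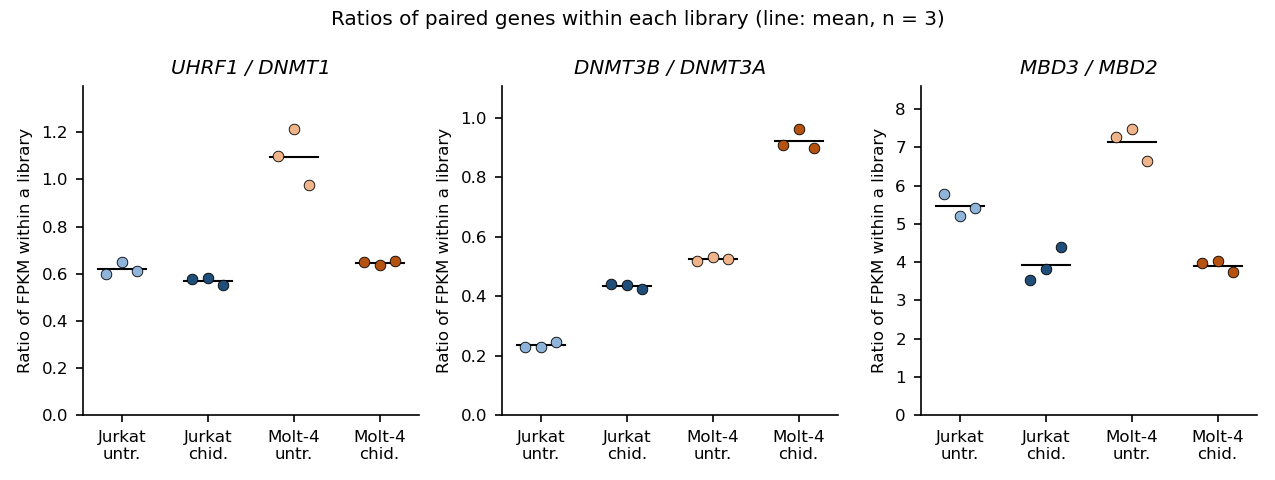
Ratio of FPKM between paired genes within each library, on linear axes from 0, by group (untr., untreated; chid., chidamide). Points are libraries and the line is the mean (n = 3). DNMT3B to DNMT3A is higher in treated than untreated libraries in both lines, and MBD3 to MBD2 is lower.

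Of the de novo methyltransferases, DNMT3B rose in both lines and DNMT3A fell in Jurkat. DNMT3B, the de novo enzyme best known from early development, was at 12.4, 13.9 and 12.3 FPKM in untreated Jurkat and at 16.75, 17.6 and 19.0 in treated Jurkat. The Molt-4 libraries held 17.96, 16.7 and 18.9 FPKM untreated and 29.3, 31.6 and 29.55 treated. Treated libraries were above untreated ones without overlap in both lines, and untreated Molt-4 overlapped treated Jurkat. DNMT3B rose by 0.44 ± 0.075 on the log2 scale in Jurkat (adjusted p = 0.000362) and by 0.73 ± 0.075 in Molt-4 (adjusted p = 4.97e-06). Of all genes tested, 76.9% in Jurkat and 81.7% in Molt-4 had a lower change. The difference between the lines was 0.29 (95% interval 0.058 to 0.52) and missed the threshold (adjusted p = 0.0566). It passed without untreated Jurkat replicate 3 (adjusted p = 0.0391), treated Jurkat replicate 3 (adjusted p = 0.0439) or untreated Molt-4 replicate 3 (adjusted p = 0.0486).

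DNMT3A, the main de novo enzyme of adult blood cells, fell in Jurkat. Its FPKM there was 54.3, 60.6 and 50.0 untreated and 38.05, 40.1 and 44.7 treated. The Molt-4 values were 34.7, 31.3 and 35.9 FPKM untreated and 32.2, 32.8 and 32.95 treated. The Jurkat groups were apart, and the treated Molt-4 libraries fell inside the untreated range. DNMT3A fell by 0.41 ± 0.082 on the log2 scale in Jurkat (adjusted p = 0.00095), and by 0.48 without untreated Jurkat replicate 3 (adjusted p = 0.000368). In Molt-4 the change was -0.053 ± 0.082 (95% interval -0.23 to 0.13, adjusted p = 0.600). The difference between the lines was 0.36 ± 0.12 (adjusted p = 0.0320), where 19.8% of all genes were called higher. That call was lost with 11 alternatives, among them quantile normalization (adjusted p = 0.0622) and the leaving out of 8 of the 12 libraries in turn, with adjusted p from 0.0508 to 0.0808 for those 8.

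The within-library ratio of DNMT3B to DNMT3A was 0.235 ± 0.0103 (SD, n = 3) in untreated Jurkat and 0.434 ± 0.00897 in treated Jurkat. In Molt-4 the ratio was 0.526 ± 0.00815 untreated and 0.923 ± 0.0348 treated. All 4 groups were apart, and in treated Molt-4 DNMT3B stood just below DNMT3A. Of the remaining DNMT family, TRDMT1, a transfer RNA methyltransferase, rose in both lines, from 5.38 ± 0.724 to 9.63 ± 1.03 FPKM in Jurkat (log2 change 0.74 ± 0.11, adjusted p = 0.000151) and from 6.25 ± 0.293 to 12.7 ± 1.49 FPKM in Molt-4 (0.91 ± 0.11, adjusted p = 2.41e-05). DNMT3L, the catalytically inactive partner of the de novo enzymes, was listed at 0 in every library except those of treated Molt-4 (mean 0.733 ± 0.220 FPKM), and it was too low to be tested.

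Of the TET genes, the erasers, TET1 in Jurkat was the 1 called with treatment. TET1 had the lowest levels with TET2, at 2.61, 2.21 and 2.91 FPKM in untreated Jurkat and 1.90, 2.11 and 1.98 in treated Jurkat. The Molt-4 libraries held 3.48, 3.08 and 3.16 FPKM untreated and 2.89, 2.95 and 2.97 treated. The treated libraries were below the untreated ones without overlap in both lines. On the log2 scale TET1 fell by 0.25 ± 0.093 in Jurkat (adjusted p = 0.0367), and the change in Molt-4 was -0.11 (95% interval -0.31 to 0.097, adjusted p = 0.349). The Jurkat call was lost without untreated Jurkat replicate 3 (-0.18, adjusted p = 0.118), without untreated Jurkat replicate 1 or any 1 treated Jurkat library (adjusted p from 0.051 to 0.105), in a fit of the Jurkat libraries alone (adjusted p = 0.0629) and with totals made equal without 7SL RNA (adjusted p = 0.120). After quantile normalization the change of TET1 was -0.65 (adjusted p = 3.83e-05) in Jurkat and -0.73 (adjusted p = 1.24e-05) in Molt-4.

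TET2, the TET gene most often mutated in blood cancers, was at 2.85, 2.64 and 3.12 FPKM in untreated Jurkat and 2.46, 2.76 and 2.78 in treated Jurkat. The Molt-4 values were 1.71, 1.77 and 1.83 FPKM untreated and 2.04, 1.78 and 1.80 treated. Treated and untreated libraries overlapped in both lines. The log2 changes were -0.077 in Jurkat (95% interval -0.27 to 0.11, adjusted p = 0.483) and 0.052 in Molt-4 (-0.14 to 0.24, adjusted p = 0.633). After quantile normalization they were -0.47 (adjusted p = 0.000613) and -0.65 (adjusted p = 4.36e-05), so the direction for TET2 in Molt-4 rests on the scaling.

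TET3, the most abundant TET transcript here, was at 15.5, 16.02 and 13.6 FPKM in untreated Jurkat and 16.01, 16.5 and 16.5 in treated Jurkat. In Molt-4 the levels were 10.2, 9.48 and 9.76 FPKM untreated and 11.6, 10.6 and 10.5 treated. The Molt-4 groups were apart by a small gap and the Jurkat groups overlapped. The log2 changes of 0.12 in Jurkat (95% interval -0.051 to 0.28, adjusted p = 0.220) and 0.13 in Molt-4 (-0.035 to 0.30, adjusted p = 0.156) did not pass, and the Molt-4 value was -0.032 after quantile normalization. None of the 3 TET genes differed in response between the lines (adjusted p = 0.444 for TET1, 0.471 for TET2 and 0.926 for TET3), and their intervals reached from -0.14 to 0.43, from -0.14 to 0.40 and from -0.22 to 0.25 on the log2 scale.

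Of the MBD pair, MBD3 fell in both lines. MBD3, the NuRD subunit with little affinity for methylated CpG, was at 114, 121 and 104 FPKM in untreated Jurkat and 75.95, 76.1 and 81.9 in treated Jurkat. The Molt-4 libraries held 116, 105 and 100.4 FPKM untreated and 62.2, 64.5 and 66.2 treated. There was no overlap in either line. MBD3 fell by 0.53 ± 0.067 on the log2 scale in Jurkat (adjusted p = 3.23e-05) and by 0.73 ± 0.067 in Molt-4 (adjusted p = 1.85e-06). Of all genes tested, 11.8% in Jurkat and 3.97% in Molt-4 had a lower change. The difference between the lines was -0.20 (95% interval -0.40 to 0.0097, adjusted p = 0.138), and it passed after quantile normalization (-0.24, adjusted p = 0.047).

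MBD2, which binds methylated CpG and takes the place of MBD3 in NuRD, was at 19.65, 23.2 and 19.2 FPKM in untreated Jurkat and 21.5, 19.9 and 18.7 in treated Jurkat. The Molt-4 values were 15.9, 14.1 and 15.1 FPKM untreated and 15.7, 16.04 and 17.7 treated. The groups overlapped in both lines. The log2 changes were -0.043 in Jurkat (95% interval -0.24 to 0.15, adjusted p = 0.717) and 0.13 in Molt-4 (-0.068 to 0.32, adjusted p = 0.242), and the sign in Jurkat turned with totals made equal without 7SL RNA (0.034). The within-library ratio of MBD3 to MBD2 was 5.48 ± 0.293 (SD, n = 3) in untreated and 3.92 ± 0.437 in treated Jurkat, and 7.14 ± 0.433 in untreated and 3.91 ± 0.152 in treated Molt-4. The ratio was thus higher in untreated Molt-4 than in untreated Jurkat, and the treated groups overlapped.

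Between the untreated lines, 3 of the 9 genes were higher and 4 lower in Molt-4, where 27.9% and 37.5% of all genes were. UHRF1 (0.80 ± 0.055 on the log2 scale, adjusted p = 6.91e-08), DNMT3B (0.44 ± 0.075, adjusted p = 0.000236) and TET1 (0.25 ± 0.093, adjusted p = 0.0331) were higher. DNMT3A (-0.68 ± 0.082, adjusted p = 1.33e-05), TET3 (-0.56 ± 0.077, adjusted p = 3.75e-05), TET2 (-0.48 ± 0.088, adjusted p = 0.000412) and MBD2 (-0.43 ± 0.088, adjusted p = 0.000932) were lower. The TET1 call was lost with 7 alternatives, among them the leaving out of untreated Jurkat replicate 1 (adjusted p = 0.0596) or 2 (adjusted p = 0.141) and of untreated Molt-4 replicate 1 (adjusted p = 0.104) or 3 (adjusted p = 0.0546). DNMT1 (-0.0078, 95% interval -0.18 to 0.16) and MBD3 (-0.077, -0.22 to 0.070) did not pass, and both were above 0 with median-of-ratios scaling.

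In the treated lines the same 3 genes were called higher in Molt-4, and MBD3 joined the 4 lower ones, where 31.7% of all genes were called higher and 37.5% lower. These values share their libraries with the treatment comparisons. The lead of Molt-4 over Jurkat was 0.29 for UHRF1 (adjusted p = 0.000442), 0.73 for DNMT3B (adjusted p = 2.89e-06) and 0.39 for TET1 (adjusted p = 0.00241) on the log2 scale. The lower ones were DNMT3A at -0.31 (adjusted p = 0.00447), TET3 at -0.55 (adjusted p = 4.43e-05), TET2 at -0.35 (adjusted p = 0.00344), MBD3 at -0.27 (adjusted p = 0.00302) and MBD2 at -0.27 (adjusted p = 0.0178). DNMT1 was not called (0.11, 95% interval -0.059 to 0.28, adjusted p = 0.219). It was called with median-of-ratios scaling (adjusted p = 0.0362) and in a fit of the treated groups alone (adjusted p = 0.049). The TET1 call was lost after quantile normalization (0.12, adjusted p = 0.218). The MBD2 call was lost with median-of-ratios scaling (adjusted p = 0.0954) and without treated Jurkat replicate 1 (adjusted p = 0.076), treated Molt-4 replicate 1 (adjusted p = 0.0632) or treated Molt-4 replicate 2 (adjusted p = 0.0542).

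The pathway around the 9 genes was described by lists of known partners. Of 8 genes that work with UHRF1 and DNMT1 in maintenance, 6 fell and none rose in each line, with medians of -0.38 in Jurkat and -0.48 in Molt-4. Over all genes tested, 25.4% fell and 30.9% rose in Jurkat, and 24.6% fell and 35.4% rose in Molt-4, and these shares are the background for each list. USP7, a deubiquitinase that binds DNMT1 and UHRF1, fell from 247.9 ± 30.4 to 132 ± 7.39 FPKM in Jurkat (log2 change -0.89 ± 0.091, adjusted p = 5.01e-06) and from 104 ± 10.4 to 66.8 ± 2.90 FPKM in Molt-4 (-0.63, adjusted p = 8.46e-05). CDCA7, the partner of the remodeller HELLS, fell by 0.51 and 0.62 on the log2 scale, and UHRF2, the paralogue of UHRF1, by 0.50 and 0.57 (adjusted p from 7.63e-07 to 2.46e-05 for these 4 values). PCNA, the replication clamp, fell by 0.35 in Jurkat and by 0.59 in Molt-4. HELLS fell in Jurkat (-0.40, adjusted p = 0.00328) and was at 107 ± 12.6 and 107 ± 6.59 FPKM in untreated and treated Molt-4.

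Genes of DNA replication moved with this group. Of 19 S-phase genes, 16 fell and none rose in Jurkat (median -0.40), and 13 fell and 1, MCM3, rose in Molt-4 (median -0.46), where 25.4% and 24.6% of all genes fell. TYMS, which makes thymidylate, fell from 426 ± 11.6 to 261 ± 4.72 FPKM in Jurkat and from 243 ± 0.493 to 149.7 ± 0.318 FPKM in Molt-4. POLE, the catalytic subunit of a replicative polymerase, fell by 0.84 and 0.59 on the log2 scale. The replication factors CDC45 (-0.73 in Jurkat) and MCM4 (-0.69 in Jurkat) were called lower in both lines. So was RRM1 (-0.58 in Molt-4), a ribonucleotide reductase subunit. CCNE1, an S-phase cyclin, fell in Molt-4 (-0.69) and was not called in Jurkat. The mean log2(FPKM + 1) over the 19 genes was 6.21 to 6.25 in untreated and 5.81 to 5.83 in treated Jurkat, and 6.44 to 6.45 in untreated and 6.08 to 6.11 in treated Molt-4. Its part in the fall of UHRF1 and DNMT1 was not tested.

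**Figure D4:**
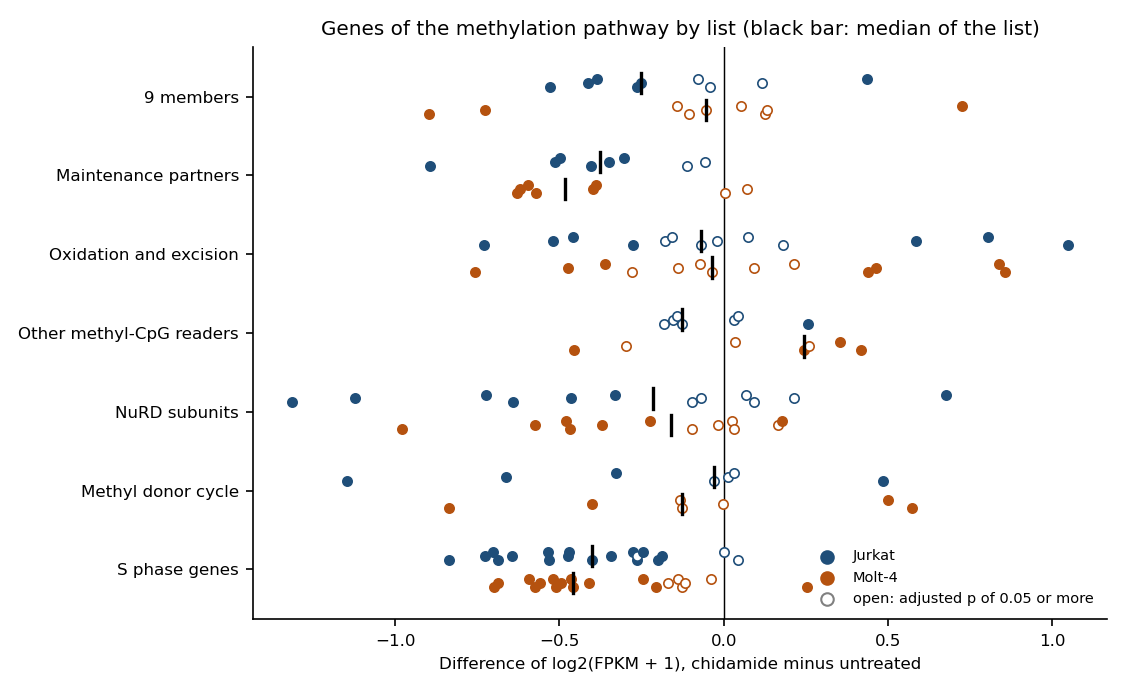
Difference of log2(FPKM + 1), chidamide minus untreated, for each tested gene of the 9 and of 6 lists of pathway genes, in Jurkat (blue) and Molt-4 (orange); filled points have an adjusted p under 0.05 and black bars are medians of a list. Maintenance partners (medians -0.38 and -0.48) and S-phase genes (-0.40 and -0.46) lie mostly to the left of 0.

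On the erasing side, of the 13 genes of oxidation and base excision 3 rose and 4 fell in Jurkat (median -0.070), and 4 rose and 3 fell in Molt-4 (median -0.037). These counts are near the shares of all genes (30.9% higher and 25.4% lower in Jurkat, 35.4% and 24.6% in Molt-4). CXXC4 and CXXC5 encode CXXC zinc-finger proteins that bind TET2. CXXC4 went from 0.03 ± 0.0173 to 1.13 ± 0.154 FPKM in Jurkat (log2 change 1.05, adjusted p = 2.71e-06) and from 0.157 ± 0.0404 to 1.10 ± 0.236 FPKM in Molt-4 (0.86, adjusted p = 1.30e-05), the latter not called after quantile normalization (0.14, adjusted p = 0.255). It reached an FPKM of 1 in treated libraries only, so it passed the filter on low values through the groups where it was high, which favours a call. CXXC5 rose by 0.80 in Jurkat, from 0.997 ± 0.186 FPKM. In Molt-4 it was far higher untreated, at 33.5 ± 1.59 FPKM, and was called higher with treatment, at 46.5 ± 2.13 FPKM. IDH1, a source of the TET cosubstrate 2-oxoglutarate, rose by 0.58 and 0.84 on the log2 scale. LIG3, a ligase of base excision repair, fell by 0.73 and 0.76, and TDG, the glycosylase that removes oxidised methylcytosine, fell by 0.47 in Molt-4 (adjusted p = 0.000663). TDG was called lower in Jurkat too, from 47.3 ± 6.15 to 38.7 ± 1.98 FPKM.

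The 7 other genes of methyl-CpG reader families were listed whether or not each protein binds methylated CpG. Of these, ZBTB33 (Kaiso) was the 1 called in Jurkat, where it rose by 0.25 (adjusted p = 0.00722). In Molt-4 3 rose and 1 fell: ZBTB33 rose by 0.25 and ZBTB4 by 0.42, while MBD1 fell by 0.46 (adjusted p = 0.0001), from 49.1 ± 1.70 to 35.6 ± 3.68 FPKM. The medians were -0.13 in Jurkat and 0.25 in Molt-4. Over all genes tested, 30.9% rose and 25.4% fell in Jurkat, and 35.4% rose and 24.6% fell in Molt-4. After quantile normalization the rises of ZBTB33 (0.11) and ZBTB4 (0.098) in Molt-4 were not called.

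Among the 12 tested subunits of NuRD apart from MBD2 and MBD3, 1 rose and 6 fell in each line, with medians of -0.21 in Jurkat and -0.16 in Molt-4, where 25.4% and 24.6% of all genes fell and 30.9% and 35.4% rose. The remodelling ATPases moved in opposite directions in Jurkat. CHD3 went from 168 ± 5.56 FPKM down to 66.9 ± 2.49 (log2 change -1.31 ± 0.048, adjusted p = 1.07e-09) and CHD4 rose from 164 ± 3.87 to 264 ± 30.3 FPKM (0.68 ± 0.080, adjusted p = 1.76e-05). In Molt-4 CHD3 was called lower too, from 47.8 ± 0.284 to 40.7 ± 1.22 FPKM, and CHD4 was not called. CDK2AP1, a small NuRD subunit, fell by 1.12 in Jurkat and 0.98 in Molt-4, and MTA1, a scaffold subunit, by 0.72 and 0.57. GATAD2A (-0.48) and MTA2 (-0.47), further structural subunits, fell in Molt-4. In Jurkat GATAD2A was called lower too, and MTA2 was not called. Of the deacetylase subunits that chidamide inhibits, HDAC1 had log2 changes of 0.067 (adjusted p = 0.404) in Jurkat and 0.18 (adjusted p = 0.0332) in Molt-4. HDAC2 had changes of 0.093 (adjusted p = 0.125) and -0.097 (adjusted p = 0.104).

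The supply of methyl groups was described by 7 genes of the S-adenosylmethionine cycle. In Jurkat 1 rose and 3 fell (median -0.029), and in Molt-4 2 rose and 2 fell (median -0.13). Over all genes tested, 30.9% rose and 25.4% fell in Jurkat, and 35.4% rose and 24.6% fell in Molt-4. AHCY, which clears the methyltransferase inhibitor S-adenosylhomocysteine, fell from 128 ± 2.65 to 57.4 ± 3.89 FPKM in Jurkat (log2 change -1.15 ± 0.053, adjusted p = 6.69e-09) and from 213 ± 7.52 to 119 ± 1.55 FPKM in Molt-4 (-0.84 ± 0.053, adjusted p = 6.57e-08). MAT2A, which makes S-adenosylmethionine, fell by 0.66 and 0.40. MTR, methionine synthase, fell by 0.33 in Jurkat. In Molt-4 AHCYL1, a relative of AHCY, rose by 0.57. MAT1A, the liver form of MAT2A, was called in Molt-4 at 0.447 ± 0.309 and 1.02 ± 0.0862 FPKM (log2 change 0.50, adjusted p = 0.0362), and this call was lost without either untreated Molt-4 replicate 1 or 3 or any 1 of the treated Molt-4 libraries (adjusted p from 0.0628 to 0.129) and without a filter on low values (adjusted p = 0.0556).

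Over the 12 libraries the 9 genes fell into patterns that are described here by Pearson's r of log2(FPKM + 1), with no test, since the 12 points come from 4 groups and share the differences between lines and treatments. TET2, TET3, MBD2 and DNMT3A varied together, with r from 0.744 to 0.896. TET1 ran against TET3 (r = -0.895), and DNMT3B ran against MBD3 (r = -0.830) and DNMT3A (r = -0.746). DNMT1 and UHRF1 had r = 0.621. Among genes whose mean FPKM reached 5, the nearest pattern to UHRF1 was that of MRPL15 (r = 0.988), NOTCH1 (0.984) and FNBP4 (0.983), and to MBD3 that of TSR3 (0.991), DHX30 (0.982) and POLD2 (0.981). For DNMT3B these were EZR (0.987), IER2 (0.985) and PLD3 (0.984), for DNMT3A OSTC (0.977), SCO1 (0.971) and SLA2 (0.969), and for DNMT1 PLPBP (0.943), METTL13 (0.920) and TMEM177 (0.910). For the TET genes they were ZNF354B (0.969), CBS (0.964) and CIZ1 (0.960) with TET1, CCDC88A (0.983), PBX4 (0.981) and B3GALNT2 (0.977) with TET2, and PFN2 (0.987), ACTB (0.987) and KCTD12 (0.986) with TET3. For MBD2 they were TUT1 (0.970), XPNPEP3 (0.962) and DOCK10 (0.957).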

How the data were processed

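RNA sequencing libraries of Jurkat and Molt-4, without and with chidamide, were used as 4 groups of 3. The authors deposited 1 table of FPKM per gene, and per the submitters' processing notes they used STAR, HTSeq and DESeq2 with the build hg19, versions and the derivation of FPKM not given in the sources used here. FPKM holds no read counts. With steps taken as equal in all libraries, 34.3% of low values lay within 0.15 of a whole multiple of a step. Uniform values give 30% without fitting. The share was 39.7% with steps fitted per library to raise it, so it cannot be set against that 30%. Whole reads were not recovered and no counting interval is given.

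The 13840 genes that reached an FPKM of 1 in 3 of 12 libraries were analysed as log2(FPKM + 1), with 1 mean per group and 8 residual degrees of freedom, in limma 3.58.1 (eBayes with trend, R 4.3.3). Such fold changes understate those of low genes. P-values were two-sided and adjusted by Benjamini-Hochberg over each comparison. The 9 genes and the lists were chosen with earlier results of these data known. Named were the 9 genes in every comparison, up to 4 called genes with the largest change per list and line (or the 2 of highest level if no gene was called), HDAC1, HDAC2 and the 3 genes of most like pattern for each of the 9. MTRR and CD22 were not analysed here, and some genes counted in the lists are not reported here by name. Alternatives were a pseudocount of 0.1, no filter, a minimum of 5, median-of-ratios scaling, quantile normalization, equal totals without 7SL RNA, only the groups compared, robust empirical Bayes, a replicate block and each library left out. Promoters came from RefSeq tables of GRCh38.p14, and no coordinates were converted.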

Additional observations from a re-analysis of the deposited data

Results flagged for a closer look

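Among the 9 genes and the genes that the naming rule took from the pathway lists, markers of cell types aside, 13 are reported here whose response to chidamide differed between the lines by the test of the difference itself (limma, adjusted p under 0.05 over all genes). Over all genes tested, 19.8% were called higher and 12.1% lower in this comparison. The naming rule picked list genes by the size of their change, so the count is not read against these shares. Values are the log2 change in Molt-4 minus that in Jurkat. Among the 9 genes those reported were UHRF1 (-0.51), which fell more in Molt-4, and DNMT3A (0.36), which fell in Jurkat. The call of UHRF1 held under all 20 alternatives, and that of DNMT3A was lost with 11 of 20. Of the maintenance partners HELLS differed by 0.41 and PCNA by -0.24, and the HELLS call was lost with 12 of its alternatives. Of the readers MBD1 differed by -0.50 and ZBTB4 by 0.60. Of NuRD, CHD3 differed by 1.09, CHD4 by -0.51 and MTA2 by -0.40. In the methyl donor cycle AHCY differed by 0.31 and AHCYL1 by 0.56, and the AHCY call was lost with totals made equal without 7SL RNA (0.23, adjusted p = 0.0513). CCNE1, an S-phase cyclin, differed by -0.69 and MAGEB2, a germline gene, by 1.00. MAGEB2 passed the filter on low values only through treated Molt-4, the group where it was high, so its call is favoured by the filter.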

How the results depend on the processing

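Over the 9 genes and 5 comparisons, 861 values under an alternative setting kept their direction and their side of the threshold, 34 lost the call, 10 gained one and 21 turned sign. Values that turned sign were counted only as such, also where a call was gained, as for TET2 in Molt-4 after quantile normalization. Quantile normalization changed most: it gave 4 of the 9 genes lower in Molt-4, 0 higher and 2 lower in the difference of the responses, and 2678 genes lower in that difference against 1671. The split of calls there was 62.2% higher, and 45.9% after it. Signs turned under it for TET2 (-0.65) and TET3 (-0.032) in Molt-4, for TET1 (-0.084), TET2 (-0.18) and TET3 (-0.13) in the difference, and for MAT1A in Molt-4 (-0.26) and MAGEB2 in Jurkat (-0.024). With totals made equal without 7SL RNA, 0 of the 9 were higher in the difference, and MBD2 in Jurkat (0.034), TET3 in the difference (-0.059) and DNMT1 between treated lines (-0.031) turned. With median-of-ratios scaling DNMT1 (0.11) and MBD3 (0.036) between untreated lines and TET3 in the difference (-0.0015) turned. The cause was not tested. Deviations from the group means had r from -0.086 to 0.041 for equal replicate numbers and from -0.029 to 0.079 for unequal ones. No pairing by number was thus seen, but deviations from means of 3 libraries cannot exclude one. With the replicate block, 0 of the 9 genes were higher in the difference of the responses, since DNMT3A reached an adjusted p of 0.0528, and the calls of TET1 in Jurkat (adjusted p = 0.0554) and between untreated lines (adjusted p = 0.0501) and of HELLS in the difference (adjusted p = 0.051) were lost. Leaving out 1 library gave 3 to 5 of the 9 lower in Jurkat (3 without untreated replicate 1 or treated replicate 2) and 0 to 2 higher in the difference (2 without untreated Jurkat, treated Jurkat or untreated Molt-4 replicate 3). Its ranges for values that turned were -0.094 to 0.038 for MBD2 in Jurkat, -0.028 to 0.082 for TET3 in the difference and -0.097 to 0.069 for DNMT1 between untreated lines. The fit of only the groups compared cannot give the difference and was not run there. Depth is unknown, which limits what can be said of TET1 and TET2.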

Other observations

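Germline genes are commonly silenced by promoter methylation in blood cells. Of 14 such genes, 12 were too low to be tested and 2 were tested. MAGEB2, an X-linked cancer-testis gene, was at 0.817 ± 0.165 FPKM in untreated and 2.72 ± 0.249 FPKM in treated Molt-4 (SD, n = 3; log2 change 1.04 ± 0.095, limma adjusted p = 1.64e-06), and at most at 0.08 FPKM in Jurkat. It reached an FPKM of 1 in treated Molt-4 only and so passed the filter on low values through the group where it was high, which favours the call. MAGEC2, of the same gene family, was at 3.54 ± 0.491 FPKM in untreated and 4.09 ± 0.366 FPKM in treated Molt-4 (0.17, adjusted p = 0.155).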
